A study of Homo sapiens with 18 samples.

Results

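Splice junction use was examined in the cyclins, the cyclin-dependent kinases (CDKs) and the proteins named after them. The genes were the protein-coding GENCODE genes whose symbol is CDK or CDKL followed by a digit, or CCN followed by a letter from A to Y and then a digit, L or nothing, and CDK10 was excluded by this rule. The rule found 62 genes, of which 57 had a row in the processed data and 55 had at least 1 tested intron. Both ends of an intron had to lie on annotated exon boundaries of the same gene, which gave 672 introns, and 468 of these had a mean usage within the tested range, among 152722 tested introns and 233650 introns in all. No row was found for CCNA1, CCND2, CCNI2, CCNP and CDK5R2, and no intron of CCNB2 or CDK9 was within the tested range. Symbols were matched by their start, so that CDK2AP1, CDK2AP2 and CCNB1IP1, which are neither kinases nor cyclins, were included.

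A CDK is a protein kinase that is nearly inactive alone and is switched on by binding a cyclin, whose own synthesis and destruction set the timing. One branch of the family, with CDK1, CDK2, CDK4 and CDK6 and cyclins A, B, D and E, drives the cell cycle. The other branch, with CDK7, CDK8, CDK9, CDK11, CDK12 and CDK13 and cyclins C, H, K, L and T, phosphorylates RNA polymerase II and splicing proteins, and the genes of both branches are themselves alternatively spliced.

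The cells were SHEP.tet21n, a human neuroblastoma line engineered to carry a MYCN transgene that doxycycline (Dox) switches off. Cells received DMSO (MYCN+) or 2 µg/mL Dox (MYCN-), and every library also received an siRNA, either a control siRNA (SNRPD3+) or siRNA #1 or #2 against SNRPD3 (SNRPD3-), which encodes a protein of the Sm ring of the spliceosome. The MYCN-/SNRPD3+ libraries served as wildtype, and MYCN+/SNRPD3+ libraries expressed the transgene with control siRNA. MYCN-/SNRPD3- and MYCN+/SNRPD3- libraries were made with each SNRPD3 siRNA, which gave 6 groups of 3 replicates and 18 libraries in all. Exposure to Dox and repression of MYCN cannot be told apart in these groups, and the sources used here do not state whether the replicates came from separate cultures, so that p-values measure only the spread between these libraries. PSI is here the fraction of the spanning reads of a group of overlapping introns (a cluster) that use a given intron, printed as a percent. A bulk library averages over its cells, so that fewer cells using a junction and less use of it per cell cannot be told apart. PSI measures neither expression nor intron retention, and neither the knockdown nor the cell type could be checked with it. The introns of the perturbed genes themselves, MYCN and SNRPD3, are not analysed here. Replicates of a group correlated at Pearson's r of 0.847 to 0.871 across introns, which are not independent replicates, and read depth is unknown.

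Across the cyclin and CDK introns few differences passed the test, and those that did lay in CDK2, CCND3 and CDK5RAP2. The test was limma on the log2 odds of PSI over all tested introns with Benjamini-Hochberg adjustment and a threshold of 0.05. In MYCN+ against MYCN- libraries (9 against 9), 3 of the 468 introns were called, 2 higher and 1 lower (0.641%), beside 1.23% of all tested introns. In MYCN+/SNRPD3- against wildtype (6 against 3), 2 were called, 1 higher and 1 lower (0.427%), beside 0.559% of all. In SNRPD3- against SNRPD3+ libraries (12 against 6), limma called 0 member introns, beside 0.0242% of all tested introns. At an unadjusted p under 0.05 that comparison held 56 member introns (12%, 31 higher and 25 lower), beside 7.8% of all. The corresponding unadjusted shares were 12% beside 11.7% for MYCN+ against MYCN- and 14.5% beside 11% for MYCN+/SNRPD3- against wildtype. The comparisons share libraries, so that their values are given side by side.

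The 4 remaining comparisons called 0 member introns by limma. These were knockdown with MYCN repressed (0.0138% of all tested introns called, and 19 members at an unadjusted p under 0.05, 4.06% beside 4.69%), knockdown with MYCN expressed (0.0196%, and 43 members, 9.19% beside 7.06%), MYCN+/SNRPD3+ against wildtype (0.0543%, and 16 members, 3.42% beside 6.19%) and the interaction of both factors (0.0177%, and 5 members, 1.07% beside 3.98%). In MYCN+/SNRPD3- against wildtype the libraries of the groups did not overlap at 46 member introns (9.83%), beside 6.53% of all tested introns, with 25 higher (beside 3.62%) and 21 lower (beside 2.92%). For MYCN+/SNRPD3+ against wildtype the number was 56 (12%), beside 11.8% of all. For knockdown it was 18 with MYCN repressed (3.85%, beside 2.52%) and 30 with MYCN expressed (6.41%, beside 3.54%). For SNRPD3- against SNRPD3+ it was 1, in CCNB1IP1 (0.214%, beside 0.0642%), and for MYCN+ against MYCN- it was 0 (beside 0.353%).

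**Figure D1:**
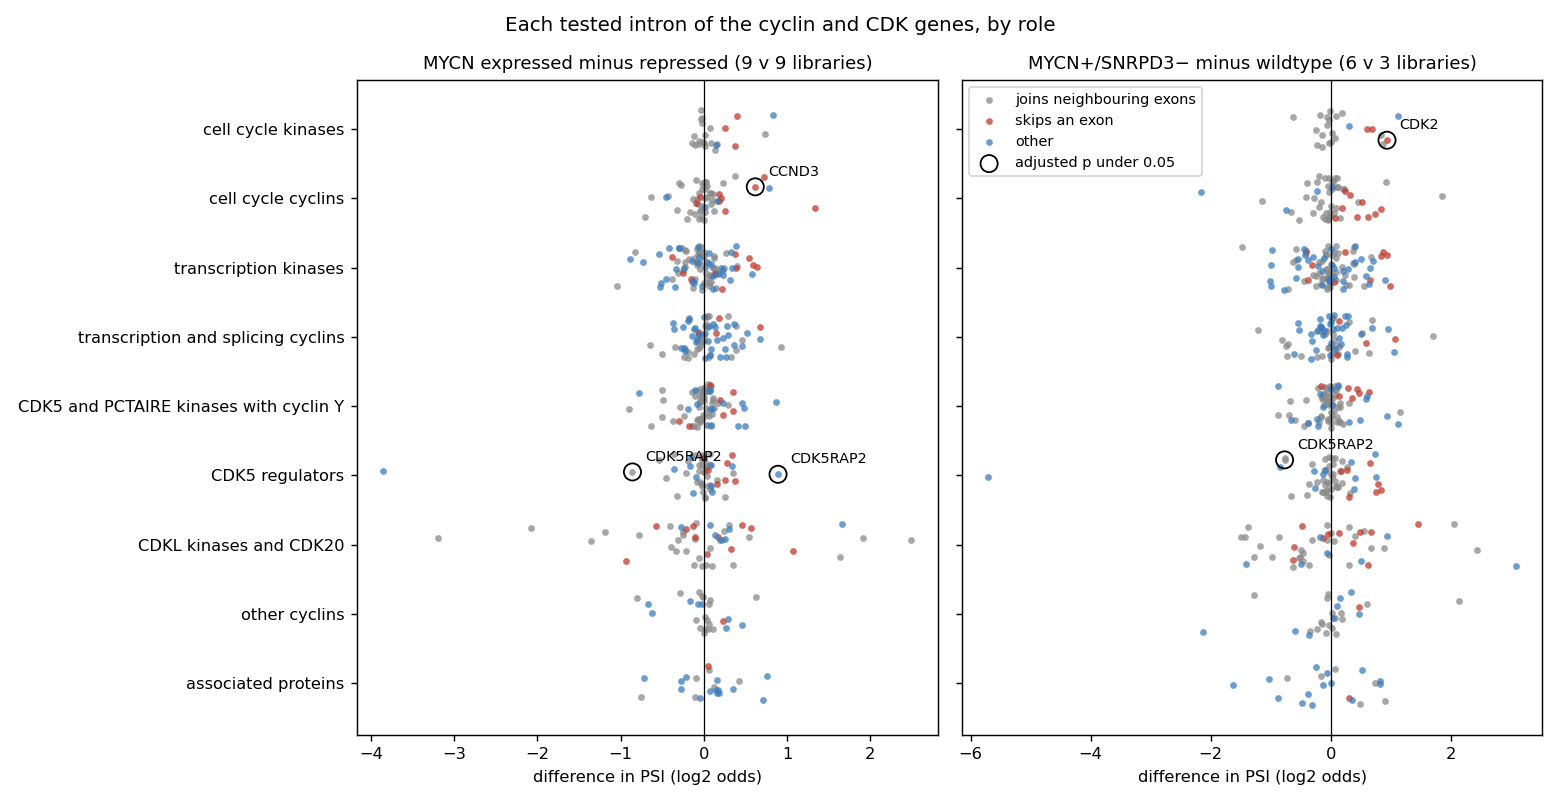
Difference in log2 odds of PSI for the 468 cyclin and CDK introns, by role of the gene, for MYCN+ against MYCN- and for MYCN+/SNRPD3- against wildtype. Each point is 1 intron, red introns skip an exon, and ringed introns passed the limma threshold, 3 in the first panel and 2 in the second.

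Among the cell cycle kinases, CDK2 gave the clearest difference. CDK2, which drives entry into and progress through S phase with cyclins E and A, had an intron at chr12:55968948-55971044 (plus strand) that joins exon 4 to exon 6 of its 7 exons and skips exon 5, a coding exon of 102 bases and so a multiple of 3. Positions throughout are of hg38, and those of an intron are the last base of the exon before it and the first base of the exon after it. The skipped exon is shown because its use differed most among the canonical exons with non-overlapping libraries, in capitals with 20 bases of intron on either side in lower case, 5′ to 3′ (chr12:55969455-55969596):
CDK2 exon 5: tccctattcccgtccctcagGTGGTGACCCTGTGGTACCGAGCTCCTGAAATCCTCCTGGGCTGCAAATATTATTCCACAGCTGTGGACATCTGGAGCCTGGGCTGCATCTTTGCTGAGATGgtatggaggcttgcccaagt

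The CDK2 skipping intron had a PSI of 4.79%, 4.24% and 4.65% in wildtype and of 6.12%, 6.09% and 5.97% in MYCN+/SNRPD3+. With MYCN repressed it was 6.75%, 5.22% and 7.62% with siRNA #1 and 8.05%, 5.75% and 7.82% with siRNA #2. With MYCN expressed it was 8.49%, 8.73% and 11.3% with siRNA #1 and 7.61%, 8.46% and 10.5% with siRNA #2. Every MYCN+/SNRPD3- library was above every wildtype and every MYCN+/SNRPD3+ library, and every library with a single perturbation was above wildtype. The MYCN-/SNRPD3- libraries reached 8.05% and overlapped both MYCN+/SNRPD3+ and the lowest MYCN+/SNRPD3- library, at 7.61%. MYCN+/SNRPD3- exceeded wildtype by 0.94 log2 odds (SE 0.16, limma, Benjamini-Hochberg adjusted p = 0.0247). Averaged over MYCN status, SNRPD3- exceeded SNRPD3+ by 0.55 (limma adjusted p = 0.190), and MYCN+ exceeded MYCN- by 0.40 (limma adjusted p = 0.0998), neither past the threshold. The interaction was estimated at 0.05 log2 odds (SE 0.22, limma, unadjusted p = 0.843). The call for CDK2 was lost without any 1 of the 3 wildtype libraries (adjusted p = 0.0787, 0.114 and 0.0896 without replicates 1, 2 and 3), without replicate 3 of MYCN+/SNRPD3- siRNA #2 (0.0508), with siRNA #2 only (0.0956), when the fit held only the groups compared (0.109) and with trend and robust moderation (0.0526).

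Expressed as a skipping share, the PSI of the skipping intron over the sum of itself and the mean PSI of both flanking introns, CDK2 exon 5 was skipped at 13.7% ± 0.789 (SD, n = 3) in wildtype and 17.8% ± 0.085 in MYCN+/SNRPD3+. The share was 27.0% ± 4.3 and 24.7% ± 3.5 in MYCN+/SNRPD3- with siRNA #1 and #2, and 25.9% ± 3.71 over both (n = 6). This measure was chosen after the data were seen and was not tested.

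CDK1, the kinase that triggers mitosis with cyclin B, skipped its exon 5 rarely. The exon has 171 coding bases, and its 5′ splice site begins with GC instead of GT, 1 of 3 GC-AG introns among the 468 (0.641%, beside 0.902% of all tested introns). It is shown for that splice site, the first bases in lower case after the exon (chr10:60788040-60788250, plus strand):
CDK1 exon 5: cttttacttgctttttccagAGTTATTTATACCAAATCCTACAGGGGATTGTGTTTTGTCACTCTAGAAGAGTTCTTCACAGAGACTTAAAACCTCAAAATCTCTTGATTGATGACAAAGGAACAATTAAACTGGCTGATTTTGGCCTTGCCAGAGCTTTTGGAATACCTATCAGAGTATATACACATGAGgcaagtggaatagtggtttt
The skipping intron of CDK1 (chr10:60785787-60791890) had a PSI of 0.509%, 0.649% and 0.732% in wildtype. It had 1.64%, 1.24% and 1.96% in MYCN+/SNRPD3- with siRNA #1 and 1.43%, 0.897% and 1.70% with siRNA #2, all above wildtype. The difference from wildtype was 0.60 log2 odds and missed the threshold (limma, Benjamini-Hochberg adjusted p = 0.0757). SNRPD3- against SNRPD3+ gave 0.38 (limma adjusted p = 0.289). The alternative junction of CDK1 from another 5′ untranslated exon into exon 2 (chr10:60778668-60780141) averaged between 5.89% and 8.08% in the 6 groups, with overlapping libraries.

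The kinases of G1, CDK4 and CDK6, which pair with D-type cyclins, gave no difference beyond their spread. The most variable tested intron of CDK4, between exons 4 and 5 (chr12:57750765-57750923), had group means between 56.6% and 58.0%. That of CDK6, between exons 1 and 2 (chr7:92833690-92836478), had group means between 52.7% and 69.8%, with an SD of 10.6 to 21.9 within groups and an adjusted p of 0.784 for MYCN+/SNRPD3- against wildtype (limma). Of the 23 introns of the 5 cell cycle kinases, 3 passed an unadjusted p under 0.05 in MYCN+/SNRPD3- against wildtype (13%, all higher), beside 11% of all tested introns.

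**Figure D2:**
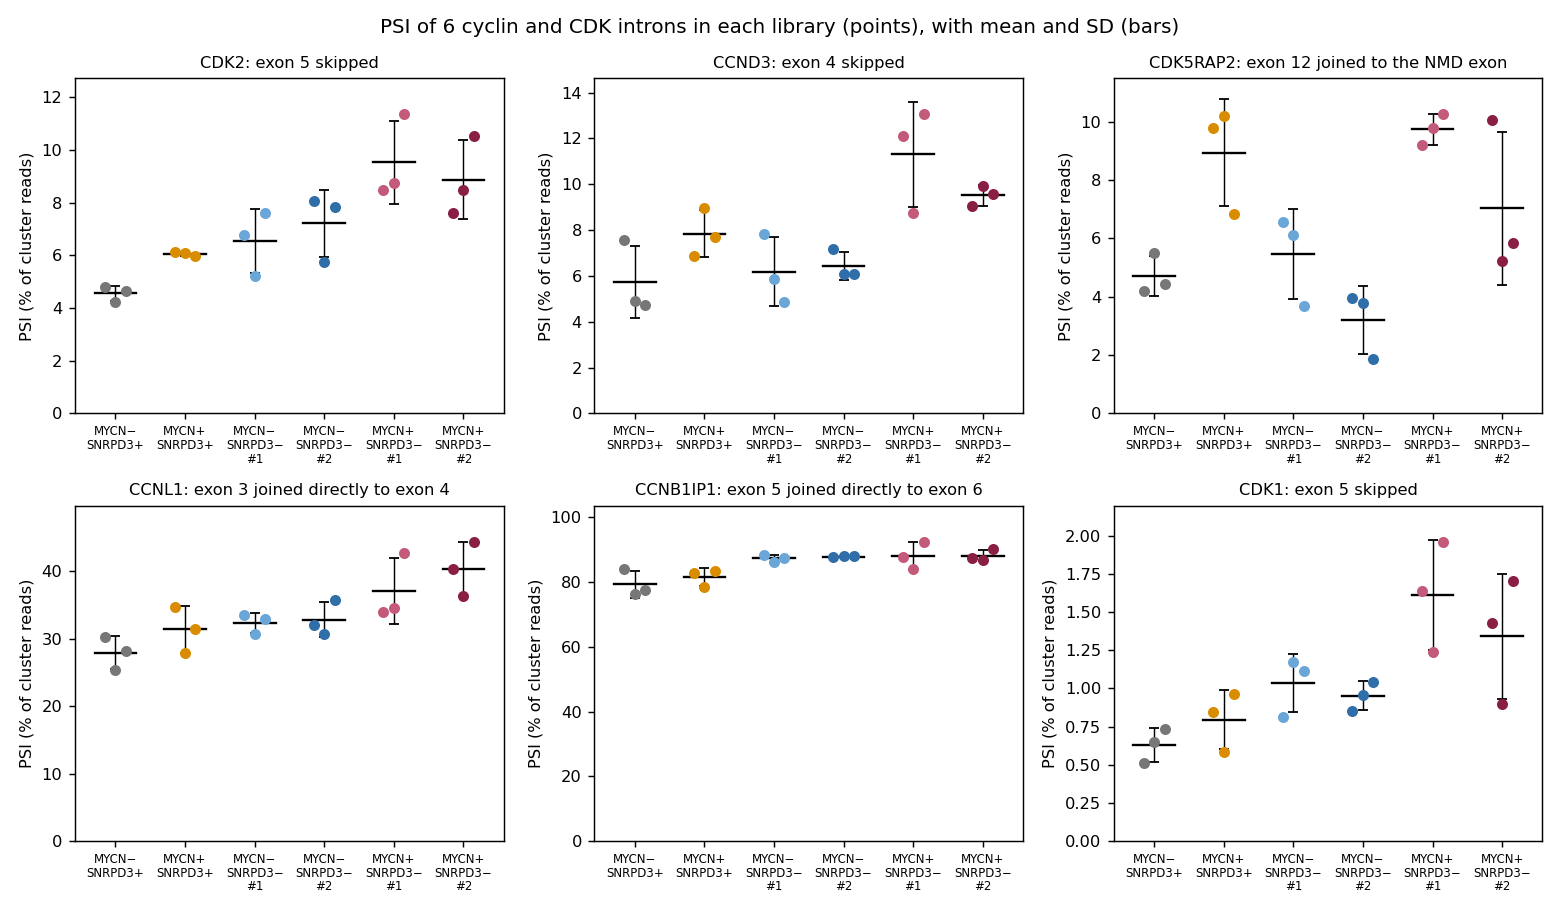
PSI in percent of 6 introns in each of the 18 libraries, by group. Each point is 1 library, lines are group means and bars are SDs (n = 3); the MYCN+/SNRPD3- libraries lie above wildtype for skipping of CDK2 exon 5, CCND3 exon 4 and CDK1 exon 5 and for the direct CCNL1 junction, the 9 MYCN+ libraries lie high for the CDK5RAP2 alternative junction with some overlap, and the 12 SNRPD3- libraries lie high for the direct CCNB1IP1 junction.

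Among the cell cycle cyclins, skipping of an exon of CCND3 was higher in the MYCN+ than in the MYCN- libraries, averaged over the siRNAs. Cyclin D3, the product of CCND3, is a D-type cyclin that activates CDK4 and CDK6. The intron at chr6:41936107-41937235 (minus strand) joins exon 3 to exon 5, the last exon, and leaves out the 137 coding bases of exon 4, which is not a multiple of 3. The exon is shown as the only canonical exon of a cyclin whose skipping junction was called (chr6:41936539-41936715, minus strand, exon in capitals):
CCND3 exon 4: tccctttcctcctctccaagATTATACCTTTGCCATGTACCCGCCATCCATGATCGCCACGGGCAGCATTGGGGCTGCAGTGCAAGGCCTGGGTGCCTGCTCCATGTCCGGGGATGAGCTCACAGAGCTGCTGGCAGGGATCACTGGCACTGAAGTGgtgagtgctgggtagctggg

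The CCND3 skipping intron had a PSI of 7.57%, 4.91% and 4.75% in wildtype, 7.81%, 5.86% and 4.87% in MYCN-/SNRPD3- with siRNA #1, and 7.16%, 6.09% and 6.07% with siRNA #2. The MYCN+ libraries had 6.87%, 8.96% and 7.72% with control siRNA, 12.1%, 8.73% and 13.1% with siRNA #1 and 9.04%, 9.94% and 9.58% with siRNA #2. The 9 MYCN+ libraries (median 9.04%) and the 9 MYCN- libraries (median 6.07%) overlapped only between 6.87% and 7.81%. MYCN+ exceeded MYCN- by 0.62 log2 odds (SE 0.12, limma, Benjamini-Hochberg adjusted p = 0.0294). The call was fragile, since adjusted p was at or above 0.05 in 12 of the 18 fits that left out 1 library (0.0172 to 0.0645 over all 18), and was 0.104 and 0.258 with siRNA #1 and siRNA #2 only. With control siRNA alone, MYCN+/SNRPD3+ exceeded wildtype by 0.44 log2 odds with overlapping libraries, not past the threshold (limma adjusted p = 0.833). MYCN+/SNRPD3- exceeded wildtype by 0.84 log2 odds with no overlap of libraries, but not past the threshold (limma adjusted p = 0.0656). The junctions on either side of exon 4 were unequal in PSI, with a mean of 66.4% between exons 3 and 4 and 25.7% between exons 4 and 5, the latter between 11.5% and 39.1% across libraries of all groups. As a skipping share the exon stood at 10.8% ± 2.81 in wildtype (n = 3) and 18.8% ± 2.86 in MYCN+/SNRPD3- (n = 6).

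No intron of the other cell cycle cyclins was called. Skipping of exon 5 of CCNB1, the mitotic cyclin B1, at chr5:69171452-69174877 averaged 0.98% ± 0.0566 in wildtype and 1.74% ± 0.227 and 1.59% ± 0.306 in MYCN+/SNRPD3- with siRNA #1 and #2. These libraries did not overlap, and the difference of 0.43 log2 odds missed the threshold (limma adjusted p = 0.128). The most variable intron of CCNA2 (cyclin A2), between exons 3 and 4 (chr4:121820765-121820979), had group means of 41.9% to 44.2%. The junction between exons 3 and 4 of CCND1 (cyclin D1, chr11:69643991-69647994) had means of 34.1% to 41.8%, with opposite signs for the siRNAs against wildtype. Skipping of exon 2 of CCNE1 (cyclin E1, chr19:29812152-29812689) ranged widely within groups, with an SD of up to 20.7, and averaged 13.9% in wildtype and 15.3% and 28.4% in MYCN+/SNRPD3- with siRNA #1 and #2. On the log2 odds scale its estimate against wildtype was below 0 with siRNA #1 only. Of the 51 introns of 8 cell cycle cyclins, 5 passed an unadjusted p under 0.05 with MYCN (9.8%, beside 11.7% of all tested introns) and 7 with SNRPD3 knockdown (13.7%, beside 7.8%).

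CDK5RAP2 gave the firmest call of the whole set. It encodes a centrosomal protein that anchors the complexes from which microtubules grow, and was first named as a partner of a CDK5 activator. The intron at chr9:120491477-120518427 (minus strand) joins exon 12 to exon 13 of 38. Its alternative (chr9:120517886-120518427) leads from exon 12 into an exon of 130 bases that GENCODE places in no protein-coding transcript and in a transcript marked for nonsense-mediated decay (NMD), the pathway that degrades RNAs with early stop codons. Both called CDK5RAP2 introns turn on this exon (chr9:120517757-120517886, minus strand).

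The direct junction of exon 12 to 13 of CDK5RAP2 had a PSI of 94.7%, 94.5% and 94.4% in wildtype and of 89.6%, 89.8% and 90.9% in MYCN+/SNRPD3+. In MYCN-/SNRPD3- it was 92.5%, 92.7% and 95.1% with siRNA #1 and 96.0%, 96.2% and 96.3% with siRNA #2. In MYCN+/SNRPD3- it was 90.1%, 90.2% and 88.1% with siRNA #1 and 89.2%, 92.9% and 91.6% with siRNA #2. The MYCN+ libraries were thus the lower, and of the 9 only 1, at 92.9%, was above the lowest MYCN- libraries. The mean was 90.3% ± 1.42 in MYCN+ (n = 9) and 94.7% ± 1.42 in MYCN- (n = 9), and the junction fell by 0.86 log2 odds (SE 0.10, limma, Benjamini-Hochberg adjusted p = 0.00143). This call held in all 18 fits without 1 library (adjusted p of 0.00153 to 0.00464) and in 10 other settings of the fit (0.000895 to 0.0232). The difference of 4.44 percentage points did not reach the minimum of 0.05 in PSI that was tried as a further condition, under which 0 member introns were called. Against wildtype, the junction was lower in MYCN+/SNRPD3- by 0.77 log2 odds (SE 0.15, limma adjusted p = 0.0465). That call was lost in 16 of 18 fits without 1 library (0.0293 to 0.158) and in 7 of 11 other settings (0.0326 to 0.221).

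The junction from exon 12 of CDK5RAP2 into the 130-base exon moved the other way. It had a PSI of 4.45% ± 1.43 in MYCN- and 8.57% ± 2.02 in MYCN+ libraries (n = 9 each), between 1.88% and 6.55% and between 5.21% and 10.2%, so that the ranges overlapped. It rose by 0.89 log2 odds (SE 0.17, limma, Benjamini-Hochberg adjusted p = 0.0199). The PSI values of a cluster sum to 1, so the fall of the one junction and the rise of the other are not separate evidence. The junction out of this exon, from it to exon 13, had a mean of only 0.997%, beside 6.51% for the junction into it, and was below the tested range. SNRPD3- and SNRPD3+ libraries had similar means of the direct junction, 92.6% ± 2.86 (n = 12) and 92.3% ± 2.48 (n = 6), with a difference of 0.08 log2 odds (limma adjusted p = 0.959).

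Skipping of 2 canonical exons of CDK5RAP2 was also higher in MYCN+/SNRPD3- than in wildtype without overlap of libraries. The skipping share of exon 32 (237 bases) was 29.9% ± 2.13 in wildtype (n = 3) and 40.7% ± 4.57 in MYCN+/SNRPD3- (n = 6). That of exon 23 (123 bases) was 1.54% ± 0.425 and 4.20% ± 1.14.

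The cyclins of transcription and splicing held the highest share of introns at an unadjusted p under 0.05 in MYCN+/SNRPD3- against wildtype among the 9 role lists, 18 of 72 (25.0%, 10 higher and 8 lower) beside 11% of all tested introns, with 0 called by limma after adjustment. CCNL1 encodes cyclin L1, the partner of CDK11 in nuclear speckles, where splicing factors gather. Its exon 3 is joined either directly to exon 4 (chr3:157153156-157158866, minus strand) or to an internal exon that starts 5′ at chr3:157157083 and ends at several 5′ splice sites. The form of 73 bases, whose exit junction had the highest PSI of these (22.3% on average), is in no protein-coding transcript and is shown as the competitor of the direct junction (chr3:157156991-157157103, minus strand, exon in capitals):
CCNL1 exon of 73 bases: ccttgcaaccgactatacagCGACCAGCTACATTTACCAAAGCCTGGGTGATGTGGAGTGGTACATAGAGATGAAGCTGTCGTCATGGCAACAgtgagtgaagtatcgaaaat
The direct CCNL1 junction had a PSI of 30.3%, 25.4% and 28.1% in wildtype and of 34.8%, 27.9% and 31.5% in MYCN+/SNRPD3+. In MYCN+/SNRPD3- it was 33.9%, 34.6% and 42.8% with siRNA #1 and 40.3%, 36.4% and 44.4% with siRNA #2, all above the 3 wildtype libraries. The difference of MYCN+/SNRPD3- from wildtype, 0.69 log2 odds, did not pass (limma, Benjamini-Hochberg adjusted p = 0.0788). The junction out of the 73-base exon was lower in MYCN+/SNRPD3- than in wildtype, 19.9% ± 3.26 (n = 6) beside 26.4% ± 0.560 (n = 3), also without overlap and not past the threshold (limma adjusted p = 0.171).

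The named introns of cyclin L2, cyclin H and cyclin K spanned fewer percentage points between group means than the direct CCNL1 junction, though not always fewer log2 odds. MYCN+/SNRPD3- differed from wildtype by 0.30 log2 odds in CCNL2, -0.74 in CCNH and 0.58 in CCNK (limma adjusted p = 0.557, 0.107 and 0.235). The junction of exons 5 and 6 of CCNL2 (chr1:1390865-1393396) had means of 6.60% to 12.1%, and exceeded MYCN- by 0.38 log2 odds in MYCN+ (limma adjusted p = 0.134). The junction of exons 8 and 9 of CCNH, the partner of CDK7, at chr5:87394484-87395044 was 94.7% ± 1.35 in SNRPD3+ (n = 6) and 92.3% ± 1.45 in SNRPD3- libraries (n = 12), a difference of -0.51 log2 odds (limma adjusted p = 0.289). Skipping of exon 6 of CCNK, the partner of CDK12 and CDK13, at chr14:99500871-99502207 averaged 0.678% ± 0.122 in wildtype and 1.5% ± 0.511 and 1.59% ± 0.896 in MYCN+/SNRPD3-. Its estimate for SNRPD3 knockdown was 0.49 log2 odds (limma adjusted p = 0.326).

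Among the transcription kinases no intron was called. At an unadjusted p under 0.05, 14 of 96 passed with SNRPD3 knockdown (14.6%, beside 7.8% of all tested introns). Counted separately, 14 of 96 passed with MYCN (14.6%, beside 11.7%). CDK12 and CDK13 phosphorylate RNA polymerase II during elongation. In CDK13, the junction of exons 12 and 13 (chr7:40088331-40092785) was higher in SNRPD3- (28.2% ± 3.17, n = 12) than in SNRPD3+ libraries (23.3% ± 2.22, n = 6) by 0.35 log2 odds, and lower in MYCN+ than in MYCN- by 0.23 (limma adjusted p = 0.262 and 0.270). The skipping share of CDK13 exon 9 (78 bases) was 2.81% ± 0.436 in wildtype and 7.5% ± 3.29 in MYCN+/SNRPD3- (n = 6), without overlap. In CDK12, an intron from exon 13 to a splice site beyond exon 14 (chr17:39526316-39544249) had 3.40% ± 1.42 in MYCN- and 1.36% ± 0.519 in MYCN+ libraries (n = 9 each), a difference of -0.89 log2 odds that missed the threshold (limma adjusted p = 0.0838). It passed without replicate 2 of MYCN-/SNRPD3- siRNA #2 (0.0170). A further CDK12 intron beyond the canonical end (chr17:39551142-39556286) had means of 10.5% to 23.1% and an SD of 2.19 to 8.1 within groups.

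CDK7, the kinase that activates other CDKs and is part of the transcription factor TFIIH, showed broad spread. The intron that skips exons 4 and 5 (chr5:69252451-69258043) had a PSI of 14.02% to 16.99% in wildtype and of 21.7% to 32.2% in MYCN+/SNRPD3-, without overlap, but 1 MYCN+/SNRPD3+ library stood at 0.0616%, beside 17.6% and 19.6% in the others of its group. The limma estimate was 0.87 log2 odds with an SE of 0.74 (adjusted p = 0.774). Near it, an 87-base exon of CDK7 in no protein-coding transcript was left out at a share of 71.3% ± 7.87 in wildtype (n = 3) and 86.5% ± 3.46 in MYCN+/SNRPD3- (n = 6). CDK11A and CDK11B are near-identical copies, so that reads may have been split between them, and none of their introns was called.

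Among the CDKL kinases and CDK20, differences were wide in size and in error. CDKL1, exons 3 to 4 (chr14:50345058-50359028), had only 16 different values in the 18 libraries, and repeated values may mark libraries without reads. It had means of 95.1% to 99.9% and a MYCN estimate of 1.64 log2 odds (limma adjusted p = 0.126). CDKL3 skipped exon 7 (chr5:134308727-134319358) at 1.36% ± 0.722 in SNRPD3+ and 3.00% ± 1.18 in SNRPD3- libraries (limma adjusted p = 0.302). It shares boundaries with a readthrough gene.

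CDK20, a kinase linked to cell cycle entry and to cilia, skipped exons 5 and 6 together (chr9:87969349-87970776, minus strand). The PSI was 7.40% ± 3.29 in MYCN- and 14.4% ± 3.20 in MYCN+ libraries (n = 9 each), with values of 2.1% to 13.2% and 8.79% to 18.6%. The difference of 1.07 log2 odds missed the threshold (limma adjusted p = 0.0892). The junction between exons 5 and 6 of CDK20 (chr9:87969919-87970568) was 19.7% ± 1.59 in wildtype and 9.88% ± 6.51 and 9.30% ± 1.41 in MYCN+/SNRPD3- with siRNA #1 and #2, without overlap (-1.27 log2 odds, limma adjusted p = 0.191).

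In the CDK5 and PCTAIRE kinases and cyclin Y, CDK14, which binds cyclin Y, had a minor junction (chr7:90466513-90479228) of 1.82% ± 0.772 in MYCN- and 0.647% ± 0.428 in MYCN+ libraries (n = 9 each, -0.78 log2 odds, limma adjusted p = 0.0830). CDK18, a PCTAIRE kinase, used the junction of exons 11 and 12 (chr1:205529096-205529324) at 45.1% ± 5.57 in wildtype and 35.3% ± 3.07 and 32.2% ± 5.30 in MYCN+/SNRPD3- (limma adjusted p = 0.476). These libraries narrowly did not overlap, with 38.68% the lowest in wildtype and 38.53% the highest in MYCN+/SNRPD3-. The CDK18 junction averaged 35.8% ± 11.5 in MYCN+/SNRPD3+. Of the 26 introns of the other cyclins (G, I, J and O), 0 passed an unadjusted p under 0.05 in SNRPD3- against SNRPD3+, in MYCN+ against MYCN- or in MYCN+/SNRPD3- against wildtype, and 0 passed the adjusted threshold (limma).

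CCNB1IP1, whose product is a ubiquitin ligase that binds cyclin B1 and acts in meiotic crossing over, ranked just after CDK2 by unadjusted p with SNRPD3 knockdown. Its direct junction of exons 5 and 6 (chr14:20313801-20316227, minus strand) competes with exons in no protein-coding transcript, of which one has 70 bases (chr14:20315781-20315850). The entry junction of this exon was the only intron of the 468 without overlap between SNRPD3- and SNRPD3+. The junction from exon 5 into this exon (chr14:20315850-20316227) had a PSI of 5.85%, 6.59% and 6.55% in wildtype and 4.48%, 5.17% and 4.50% in MYCN+/SNRPD3+, and lay between 1.33% and 4.28% in the 12 SNRPD3- libraries. The direct CCNB1IP1 junction had 84.1%, 76.4% and 77.5% in wildtype, 82.9%, 78.4% and 83.3% in MYCN+/SNRPD3+ and 83.9% to 92.3% in SNRPD3- libraries. The sides overlapped for the direct junction by a single value each, and its difference of 0.77 log2 odds did not pass (limma, Benjamini-Hochberg adjusted p = 0.190).

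**Figure D3:**
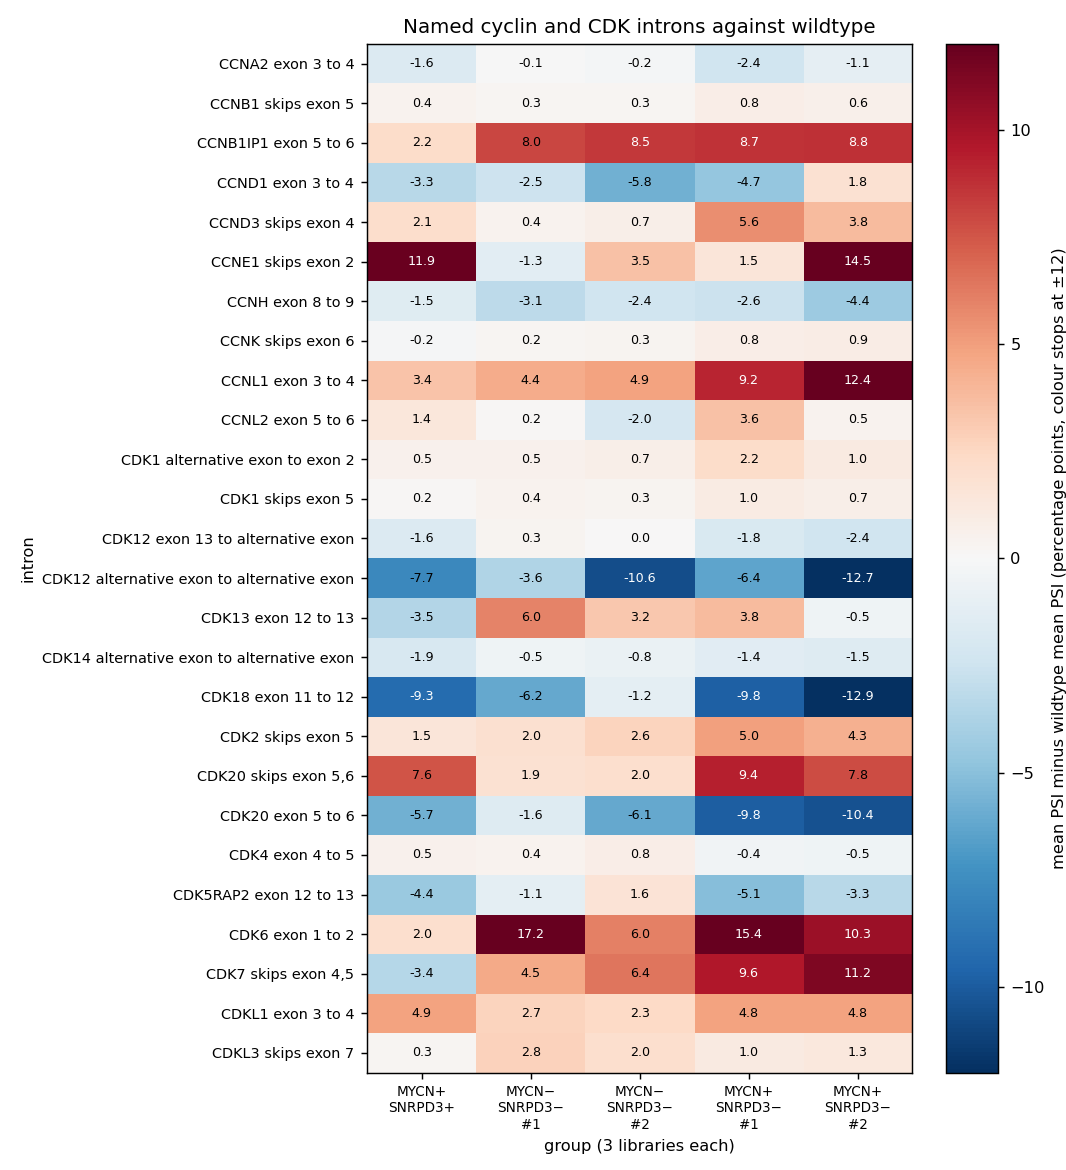
Mean PSI of each group minus the wildtype mean, in percentage points, for 26 named introns. Columns are the 5 other groups, n = 3 libraries each, and the colour scale stops at 12 points either way. Named introns of CCNB1IP1, CCNL1, CCNB1, CCND3, CDK1, CDK2, CDK6, CDK20, CDKL1 and CDKL3 stand above wildtype in all 5 groups. For CDK20 this holds for the skipping intron only.

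Introns that skip at least 1 exon of the canonical transcript were mostly higher after either perturbation, and this held across all genes as it did in the cyclins and CDKs. There were 53 such introns in 33 member genes, with a median PSI of 2.56%. In SNRPD3- against SNRPD3+, 44 of the 53 were higher (83.0%, median 0.25 log2 odds), beside 73.5% of 11595 such introns in all genes (median 0.20). In MYCN+ against MYCN-, 40 were higher (75.5%), beside 71.2%. In MYCN+/SNRPD3- against wildtype, 44 were higher (83.0%, median 0.43), beside 76.2% (median 0.38). Of these, 20 passed an unadjusted p under 0.05 upwards (37.7%, beside 25.6%) and 0 downwards (beside 1.58%). The libraries of these groups did not overlap at 12 of the 53 upwards (22.6%, beside 16.3% of such introns in all genes) and at 1 downwards (1.89%, beside 0.724%). Knockdown with MYCN repressed had 37 higher (69.8%, beside 65.1%) and knockdown with MYCN expressed 43 (81.1%, beside 72.8%). With MYCN alone, 32 were higher (60.4%, beside 60.9%). By contrast, of the 284 introns between neighbouring canonical exons, 119 (41.9%, beside 43.5%) were higher in MYCN+/SNRPD3- than in wildtype.

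The same was seen exon by exon. A skipping share could be formed for 50 canonical exons in 31 genes, 34 to 324 bases long with a median of 121, of which 23 had a length that is a multiple of 3. The share was higher in SNRPD3- than SNRPD3+ for 40 exons, with a median difference of 1.14 percentage points. It was higher in MYCN+ than MYCN- for 40 (median 1.31 points) and higher in MYCN+/SNRPD3- than in wildtype for 42 (median 2.42 points). In the last comparison 8 exons were higher and 0 lower without overlap of libraries, namely CDK2 exon 5, CCND3 exon 4, CCNB1 exon 5, CCNK exon 6, CDK1 exon 5, CDK13 exon 9 and CDK5RAP2 exons 23 and 32. Without overlap, 8 were higher and 1 lower in MYCN+/SNRPD3+ against wildtype. For knockdown these numbers were 6 and 1 with MYCN expressed and 4 and 0 with MYCN repressed. The corresponding numbers over exons of all genes were not computed for any of these counts, so that they cannot be read as particular to the cyclins and CDKs. No test was run on these shares, which were formed after the data were seen, and several exons share a cluster or a gene.

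Exons that GENCODE places in NMD transcripts but in no protein-coding one were followed in the same way. Of 14 such exons in 8 genes, the share leaving them out was higher in SNRPD3- than in SNRPD3+ for 12 (median 1.5 points) and higher in MYCN+ than in MYCN- for 8. In MYCN+/SNRPD3- against wildtype it was higher for 9, and without overlap for exons of CCNB1IP1 (70 bases), CCNL1 (77 bases) and CDK7 (87 bases). It was lower without overlap for the 130-base exon of CDK5RAP2. The 77-base exon of CCNL1 shares its entry junction with the 73-base exon shown above, and its exit junction was below the tested range. The 14 are not independent, since exons of CCNL1, CCNT2, CDK12 and CCNB1IP1 overlap or share junctions. The corresponding numbers over such exons of all genes were not computed, and no test was run on these shares. Among introns found only in NMD transcripts, 16 of 40 member introns were higher in SNRPD3- than SNRPD3+ (40.0%, beside 49.5% of 4693 in all genes), and 27 were higher in MYCN+ than MYCN- (67.5%, beside 56.3%).

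CDK inhibitors and partners outside the rule were read from a list of their own, with 336 tested introns in 37 genes. With MYCN 3 of them were called (limma, Benjamini-Hochberg), beside 1.23% of all tested introns. In CKS1B, a small subunit that docks substrates to CDKs, the junction at chr1:154974804-154977987 fell by 0.43 log2 odds in MYCN+ against MYCN- (limma adjusted p = 0.0189). Its competitor at chr1:154974912-154977987 rose by 0.47 in the same comparison (limma adjusted p = 0.0129). The competitor had a PSI of 3.68% ± 0.256 in wildtype and 3.79% ± 0.318 and 4.65% ± 0.562 in MYCN-/SNRPD3- with siRNA #1 and #2. It had 5.04% ± 0.582 in MYCN+/SNRPD3+ and 6.41% ± 0.803 and 6.22% ± 0.798 in MYCN+/SNRPD3-. In LARP7, which stabilises the small nuclear RNA that holds CDK9 inactive, the junction at chr4:112637239-112644668 rose by 0.44 in MYCN+ against MYCN- (limma adjusted p = 0.0478). The LARP7 junction had 72.5% ± 3.25 in wildtype and 75.6% ± 2.04 in MYCN+/SNRPD3+, with overlapping libraries. It had 72.5% ± 3.25 and 75.9% ± 1.36 in MYCN-/SNRPD3- with siRNA #1 and #2, and 81.6% ± 1.37 and 80.5% ± 2.58 in MYCN+/SNRPD3-. Both CKS1B introns, which share a cluster, were also called in MYCN+/SNRPD3- against wildtype (limma adjusted p = 0.0358 and 0.0327). They were the only 2 of the 336 called there, beside 0.559% of all tested introns. In SNRPD3- against SNRPD3+ 0 of the 336 were called and 30 passed an unadjusted p under 0.05 (8.93%, beside 7.8% of all tested introns).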

How the data were processed

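The libraries were 18 RNA-seq libraries of SHEP.tet21n cells, made with TruSeq Stranded mRNA-seq, and groups and replicates were taken from the sample labels. The authors aligned reads to hg38 (STAR 2.5.0a and SAMtools 1.3.1 in the submitters' processing notes) and clustered introns with leafcutter. What the authors deposited as PSI is a fraction per intron and library, for 233650 introns in 51819 clusters in all. The values are never exactly 0 or 1, and read counts are not given, so that depth is unknown and no interval or floor was computed. A second deposited table, with the adjusted p-values and delta PSI of the authors' own comparisons, was not used. No column was left unmatched to a library (0).

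Introns were matched to exon boundaries of GENCODE release 44, and the paper names an earlier release. Clusters carry no strand, so the strand of the gene was used, and boundaries shared with CLDN12 (CDK14) or a readthrough gene (CDK3, CDKL3) were counted for the member. PSI was transformed to log2((PSI + 0.01)/(1 - PSI + 0.01)). The offset of 0.01 shrinks differences of introns near the ends of the tested range, so that their log2 odds are not comparable in size with those of other introns. Introns with a mean PSI from 0.01 to 0.99 (152722 in 44442 clusters) were fitted with limma 3.58.1 in R 4.3.3, 6 group means in 1 fit over all 18 libraries, with 12 residual and 1.17 prior degrees of freedom. Benjamini-Hochberg adjustment was made within each comparison, with a threshold of 0.05. Some values are repeated exactly across libraries in 32 member introns (6.84%) and 26370 tested introns (17.3%), and may stand for libraries without reads. On simulated data for SNRPD3- against SNRPD3+ over 152722 introns, a shift of 0.5, 1 and 2 log2 odds in 200 introns was called in 5%, 34.5% and 63.5%. These were 10, 69 and 127 introns, and 4, 9 and 16 introns without a shift were called beside them. The introns without a shift thus exceeded the share that the threshold of 0.05 aims at. The data were made by shuffling deviations from group means between libraries. Such deviations understate the spread, so that the shares called can be too high.

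Named introns were those called in any comparison (the one with the largest PSI difference per cluster), the 8 with the smallest p with SNRPD3 knockdown and with MYCN (1 per gene), the 5 with the largest PSI difference among those without overlap between MYCN+/SNRPD3- and wildtype, and the most variable intron of 13 core genes, of which CDK9 had none, and 1 intron that this rule named is not reported here. Other introns and exons were named after their values were seen. Members, role lists and tests were chosen with earlier results of these data known. Alternatives were another scale or offset, other filters, single siRNAs, a replicate block, other moderation and leaving out each library. Sequences were read from hg38. Python 3.11.15 with pandas 2.3.3 was used for counts and matplotlib 3.10.9 for plots.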

Additional observations from a re-analysis of the deposited data

How the results depend on the processing

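The count of called cyclin and CDK introns depended on the settings. With MYCN (3 called), it was 0 with a minimum difference of 0.05 in PSI, 1 with siRNA #1 only, 1 with siRNA #2 only and 2 to 4 without 1 library. In MYCN+/SNRPD3- against wildtype (2 called), it was 1 on the PSI scale, 1 with an offset of 0.05, 0 when the fit held only the groups compared, 7 with a replicate block, 0 with trend and robust moderation, 4 among introns with 18 different values, 0 with the minimum difference, 1 with siRNA #1 only, 0 with siRNA #2 only and 0 to 3 without 1 library (0 without any wildtype replicate or without replicate 3 of MYCN+/SNRPD3- siRNA #2). For knockdown with MYCN expressed it was 0 to 1, with 1 when wildtype replicate 1 was left out. In SNRPD3- against SNRPD3+ it stayed at 0. The causes were not tested, beyond the fewer libraries or stricter rules some settings apply. Against wildtype, the sign turned for CCND1 with siRNA #2 only (0.11 log2 odds) and for CCNE1 with siRNA #1 only (-0.038 log2 odds). The numbers of introns that skip an exon and were higher stayed within 40 to 46 (SNRPD3), 35 to 41 (MYCN) and 40 to 47 (MYCN+/SNRPD3- against wildtype).

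Over all tested introns, deviations of same-numbered replicates of different groups were hardly correlated (mean r of 0.00615 over 45 pairs, from -0.0509 to 0.0638). A correlation over all introns cannot exclude a shared deviation at single introns. The main fit took the numbers as names and held no replicate block. With the block, CCNL1 was among the 7 members called in MYCN+/SNRPD3- against wildtype (limma adjusted p = 0.0369). Over all tested introns the block gave 1346 calls in place of 854 in that comparison. It gave 2154 in place of 1875 with MYCN and 25 in place of 37 with SNRPD3 knockdown. Introns that were not called with MYCN passed without 1 library for CDK20 (adjusted p of 0.0892 with all libraries and 0.0418 without wildtype replicate 2) and CDKL1 (0.126 and 0.0248 without wildtype replicate 1). Unknown depth limits all values of rare junctions, such as the skipping introns near 1%.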
